A study of Mus musculus with 11 samples.

Results

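Ribosomal protein genes encode the proteins that, with ribosomal RNA, make up the large (Rpl) and small (Rps) subunits of the cytosolic ribosome. They were taken from the table as every row whose symbol is Rpl or Rps followed by a digit, or is Rpsa, Rplp0, Rplp1 or Rplp2, without the Rps6k kinases and Rps19bp1. This gave 168 of 22377 rows, of which 86 were ribosomal protein genes (52 Rpl and 34 Rps) and 82 carried the -ps ending of a pseudogene symbol. Values of at least 1 CPM (reads scaled to the total of the library) on average were found for 84 of the genes and 33 of the pseudogenes, and these were tested. Rpl32l and Rpl39l were the genes below that level.

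The table comes from cap analysis of gene expression (CAGE), which traps capped RNA and sequences its 5′ end, here in total RNA from whole hippocampi of male C57BL/6N mice. Photothrombosis (PT) is a cortical stroke made by lighting the left parietal region after rose bengal, and levetiracetam (LEV) is an anti-seizure drug given in the drinking water. There was 1 library in each of 11 groups. These were naive mice with no treatment, PT at 7 d, PT at 7 d with LEV, PT at 1 m, PT at 1 m with LEV, and PT at 2 m after LEV was withdrawn. Each PT condition had a library of the infarcted side and a library of the non-infarcted side, given below in that order. The labels put withdrawal at 2 weeks and the series text at 1 week. The labels give neither the age of the mice in a library, nor how many were pooled, nor whether both sides came from the same mice. The series text names mice of 8 to 10 and of 65 to 85 weeks, and starts LEV 1 month after PT. A course of 2 weeks is described for LEV. When, and for how long, the mice of the PT 7 d LEV and PT 1 m LEV libraries received it is therefore not clear.

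Ribosomal protein mRNAs are among the most abundant mRNAs of most cells. Many of them begin with a C followed by a run of pyrimidines, the 5′ terminal oligopyrimidine (TOP) tract, through which their translation is tied to growth signals such as mTORC1. Their genes have left many processed pseudogenes, copies of the spliced mRNA inserted elsewhere in the genome. Neurons depend on this supply both in the cell body and in their processes.

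The start windows are shown for the genes with the largest changes with LEV at 1 m, because the TOP tract is known from many ribosomal protein mRNAs. Each runs from 10 bases before to 20 after the RefSeq start (GRCm38.p6), 5′ to 3′ on the gene's strand, with the longest run of C followed by at least 5 of C or T in capitals. The first 5 lines are genes that were lower with LEV, and the other 5 genes that were higher.
Rps6: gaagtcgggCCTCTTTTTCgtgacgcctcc
Rpl18: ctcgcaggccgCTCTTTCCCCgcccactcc
Rpl6: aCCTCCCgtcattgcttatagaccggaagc
Rpl11: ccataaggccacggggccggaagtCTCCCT
Rps3: aagggtcgccgcgctgcgcggcgtcattgc
Rps2: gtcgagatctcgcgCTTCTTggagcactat
Rps21: aggacccgCCCTCCTgcccaatagtgctgc
Rps12: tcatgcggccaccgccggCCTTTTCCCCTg
Rpl27a: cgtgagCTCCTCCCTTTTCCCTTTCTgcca
Rpl39: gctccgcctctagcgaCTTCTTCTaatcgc
These windows lie at chr4:86857348-86857377 (minus strand), chr7:45718061-45718090 (plus), chr5:121204491-121204520 (plus), chr4:136053374-136053403 (minus) and chr7:99483690-99483719 (minus). The windows of the genes that were higher lie at chr17:24720053-24720082 (plus), chr2:180257369-180257398 (plus), chr10:23787190-23787219 (minus), chr7:109519185-109519214 (plus) and chrX:37085203-37085232 (minus). The RefSeq start lay 2614 bases from the start of the GENCODE M21 gene in Rpl18, 1947 bases in Rps2, 180 bases in Rpl39 and 2 to 66 bases in the other 7 genes, so the windows of Rpl18 and Rps2 do not lie at the GENCODE gene start.

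A tract was present in windows of both directions, and Rps3 had none. In Rpl6 it lies wholly before the RefSeq start, and in Rpl11 it begins at base 15 after it. Among 82 tested protein-coding ribosomal protein genes, 62 had a RefSeq promoter, and 33 of these (53.2%) held the tract on the strand that is read, against 22% of 32851 RefSeq promoters. It was found in 14 of 18 genes called higher with LEV at 1 m, in 7 of 10 called lower and in 12 of 34 not called. The letters CCGGAAG, the core that ETS factors bind, were found on either strand in 38.7% of the 300-base promoters of these genes, against 8.86% of all. TATAAA was found on either strand in 9.68% against 13.6%. These are matches of letters, and the start used by the reads is not recorded in the table, which gives 1 value a gene.

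Library totals were 13382623 to 22377376 reads, and 3 reads, about the upper 95% limit for a count of 0, are worth 0.134 to 0.224 CPM. Summed markers of pyramidal and granule neurons lay between 7696 and 9138 CPM in the 11 libraries. Summed choroid plexus markers had low values of 58.4 CPM for the infarcted side at PT 1 m and 106 CPM for the non-infarcted side with LEV, against 1281 to 4885 CPM in the other 9 libraries. Over the ribosomal protein genes, log2 levels of naive and the 1 m libraries correlated with each other at 0.970 to 0.998, and those of the 7 d and 2 m libraries at 0.977 to 0.998. Pairs between these sets correlated at 0.886 to 0.978. The labels name no batch, so that time after PT and a batch cannot be told apart.

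All ribosomal protein rows together took 3.24% of the reads in the naive library. They took 3.64% and 3.25% in PT 7 d, 3.45% and 3.56% in PT 7 d LEV, 3.61% and 3.65% in PT 1 m, 4.07% and 4.10% in PT 1 m LEV and 2.90% and 2.66% in PT 2 m after withdrawal. Both PT 1 m LEV libraries were above all 9 others, and both withdrawal libraries were below all 9 others. The share was 1.13 times as high in PT 1 m LEV as in PT 1 m, a comparison of 2 libraries with 2 and without a test. In RNA of whole tissue, more cells of a type and more RNA per cell cannot be told apart. Large subunit genes took 1.78% and 1.78% in PT 1 m and 1.99% and 1.98% in PT 1 m LEV. Small subunit genes took 1.77% and 1.81% and 2.01% and 2.04%, so that both subunits were higher on both sides. Pseudogenes were a small part, at 0.0570% and 0.0565% without LEV and 0.0706% and 0.0723% with it.

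Behind the summed rise at 1 m, single ribosomal protein genes went in both directions. With LEV at 1 m, 23 of 84 genes were called higher and 11 lower (limma adjusted p under 0.05), where 7.12% of all 16057 tested genes were called higher and 8.46% lower. Of 33 pseudogenes, 9 were called higher and 2 lower. Among the 9 was Rps25-ps1, with 66 and 60 reads in PT 1 m LEV against 2 to 30 in the other libraries. Its mean of 1.39 CPM passed the filter of 1 CPM only through the PT 1 m LEV libraries, so the filter favoured that call. Large subunit genes had 12 of 50 higher and 7 lower, and small subunit genes 11 of 34 higher and 4 lower. The median log2 difference was 0.11 for the genes and 0.28 for the pseudogenes, against −0.04 for all tested genes. Direction depended on scaling for genes of small difference: 31 genes were called higher and 11 lower with TMM scaling, and 14 higher and 16 lower with quantile scaling, where the genes' median was −0.02. The test measures the spread of the side difference over conditions, and its p-values are too small if both sides came from the same mice. The calls rest on few libraries: without PT 1 m LEV infarcted 12 members were called in place of 45, and without both libraries low in choroid plexus markers 20 were (6 higher and 14 lower). Of the 12 choroid plexus markers 0 were called in this comparison. Their sums were low on opposite sides (58.4 and 1450 CPM in PT 1 m, 1812 and 106 CPM in PT 1 m LEV). Such swings widen the spread, so 0 calls do not show equal content. Of 10 markers in each list, 2 oligodendrocyte markers were higher and 2 astrocyte markers lower. Endothelial markers had 1 higher and 2 lower, and neuronal markers 2 higher and 1 lower. Microglia and blood cell markers had 0 called. The part of these cell types was not tested.

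The direction followed the length of the coding sequence. Among the 28 tested genes with the shortest coding sequence (75 to 396 bases), 17 were called higher and 0 lower, and the median log2 difference was 0.34. Among the 27 of middle length (399 to 564 bases), 4 were called higher and 4 lower, with a median of 0.01. Among the 27 longest (576 to 1257 bases), 1 was called higher and 7 lower, with a median of −0.20, and the gene called higher was Rps2. Spearman's rho between the LEV difference at 1 m and coding length was −0.64 over the 82 genes, and −0.0286 over 5989 other protein-coding genes in the same range of length. These are correlations across genes within the same libraries, and genes are not independent replicates. The other genes of the 3 length ranges had medians of 0.03, −0.03 and −0.03. In the shortest range 89 of these 734 genes were called higher and 58 lower. In the middle range 76 of 850 were called higher and 85 lower, and in the longest 329 of 4405 higher and 334 lower. The grouping by length was chosen after the values were seen and has no test of its own.

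**Figure D1:**
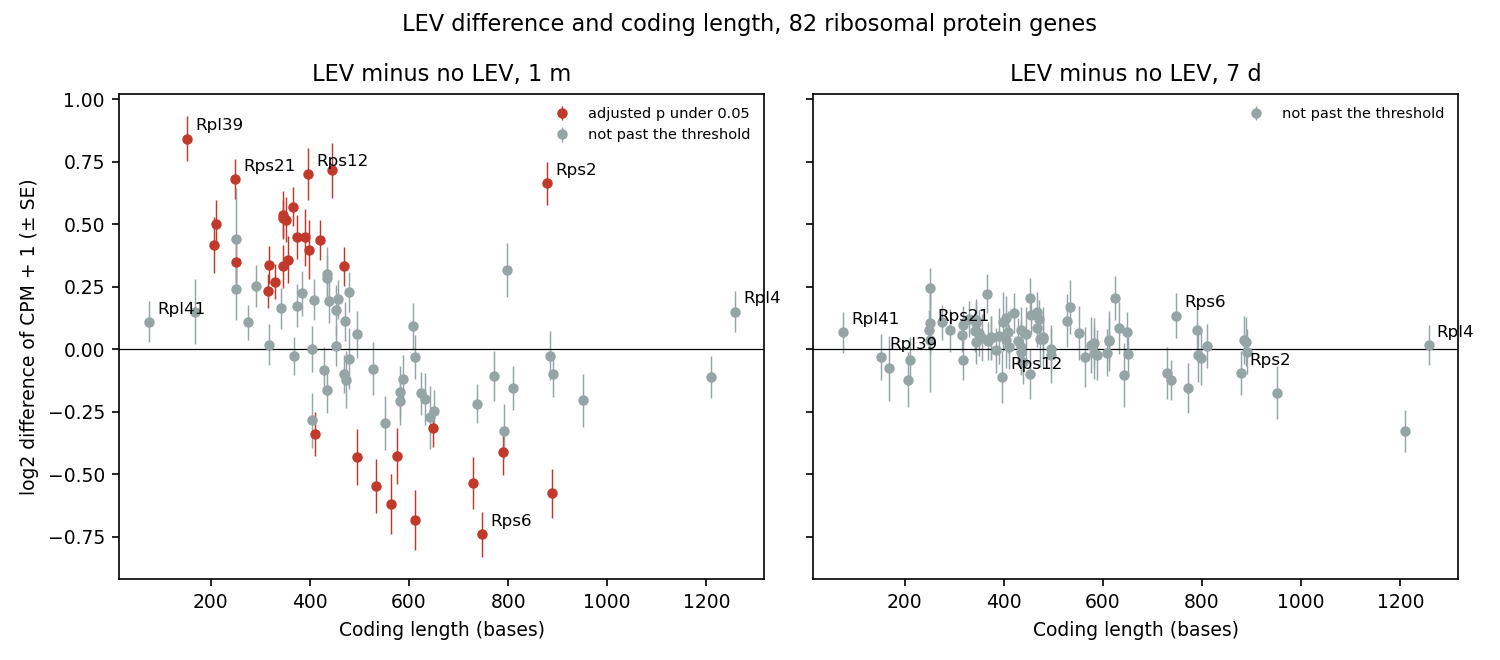
Log2 difference between LEV and no LEV (vertical, of CPM + 1, bars are SE) against coding length in bases (horizontal) for 82 ribosomal protein genes, at 1 m on the left and at 7 d on the right. At 1 m the 28 shortest genes have a median of 0.34 and the 27 longest of −0.20, with Rps2 apart at 0.66, while at 7 d no gene passed the threshold.

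Summed over the 28 shortest genes, the level was 11424 CPM in naive, 12985 and 12465 CPM in PT 1 m and 17362 and 16396 CPM in PT 1 m LEV. It was 10828 and 9778 CPM in PT 7 d, 10595 and 10697 CPM in PT 7 d LEV and 8122 and 7149 CPM after withdrawal. The PT 1 m LEV libraries were thus highest and the withdrawal libraries lowest of the 11. Summed over the 27 longest genes, the level was 7361 CPM in naive, 8139 and 8633 CPM in PT 1 m and 7519 and 8365 CPM in PT 1 m LEV. It was 10879 and 9874 CPM in PT 7 d, 10090.3 and 10426 CPM in PT 7 d LEV and 9475 and 8759 CPM after withdrawal. Naive and the 1 m libraries were here below all 7 d and 2 m libraries. Across the 11 libraries the mean log2 levels of the shortest and the longest genes had a Pearson's r of −0.639, a description over points that share conditions and sides.

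**Figure D2:**
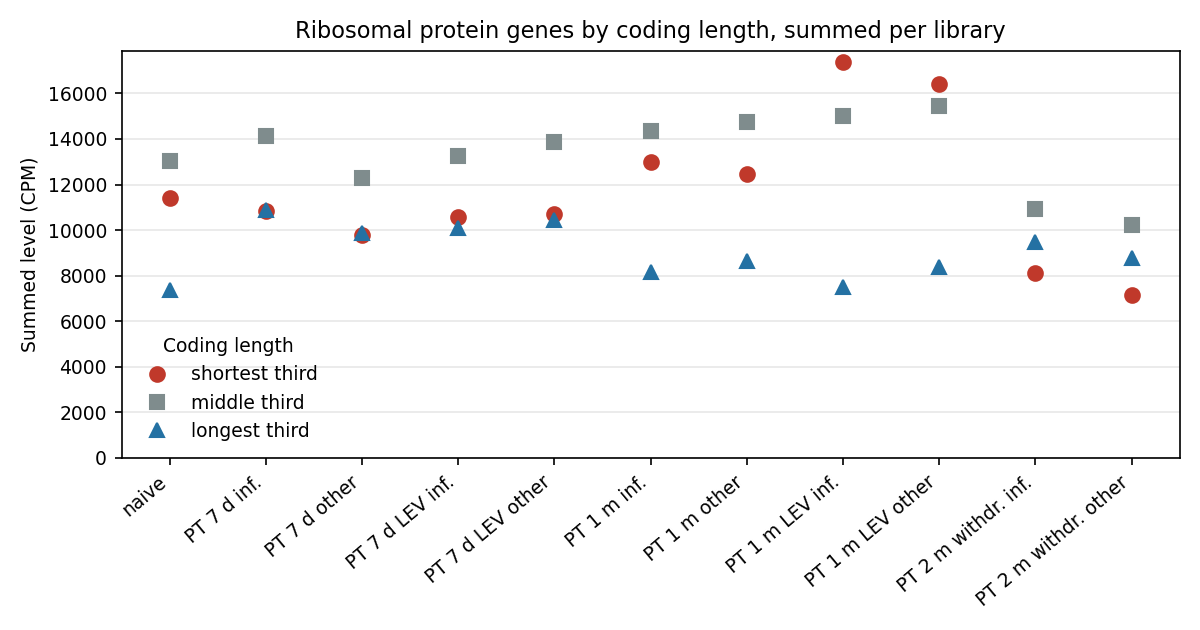
Summed level in CPM (vertical, from 0) of the 28 shortest, 27 middle and 27 longest ribosomal protein genes by coding length in each of the 11 libraries (horizontal), 1 point a library. The shortest genes are highest in the 2 PT 1 m LEV libraries (17362 and 16396 CPM) and lowest after withdrawal (8122 and 7149 CPM).

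Among the genes called higher, Rpl39 showed the largest difference. Its product is one of the smallest ribosomal proteins and lines the tunnel through which the new peptide leaves. Rpl39 (X chromosome, chrX:37082520-37085402, minus strand, GRCm38) was at 381 CPM in the naive library, 412 and 378 in PT 7 d, 400.4 and 372 in PT 7 d LEV, 448 and 420.0 in PT 1 m, 824 and 735 in PT 1 m LEV, and 278 and 204 in PT 2 m after withdrawal. The PT 1 m LEV libraries were the highest and did not overlap with any other, with a difference of 0.84 ± 0.09 (SE; limma adjusted p = 0.000472).

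Rps21 encodes a small protein of the small subunit (chr2:180257377-180258445, plus strand). It was at 748 CPM in the naive library, 424 and 395 in PT 7 d, 433 and 431 in PT 7 d LEV, 950.3 and 857 in PT 1 m, 1539 and 1361 in PT 1 m LEV, and 329.5 and 277 in PT 2 m after withdrawal. Its level at 1 m with LEV was above every other library, and its level in all 7 d and 2 m libraries was below naive. The LEV difference at 1 m was 0.68 ± 0.08 (SE; limma adjusted p = 0.000639).

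Rps12, of the small subunit, shares its reads in every library with the small nucleolar RNA row Snord100 inside it, so those rows cannot be separated. It was at 562 CPM in the naive library, 491 and 396 in PT 7 d, 410.3 and 406 in PT 7 d LEV, 623 and 708 in PT 1 m, 1096 and 1066 in PT 1 m LEV, and 329.6 and 291 in PT 2 m after withdrawal. The difference at 1 m was 0.70 ± 0.10 (SE; limma adjusted p = 0.00164), and the PT 1 m LEV libraries were again above all others. Rpl27a, of the large subunit, was at 244 and 240.4 CPM without LEV and 411 and 386 CPM with it at 1 m, a difference of 0.72 ± 0.11 (SE; limma adjusted p = 0.00197); its reads equal those of the row Snora3. Rps2, of the small subunit, was at 549.7 and 595 CPM without LEV and 884 and 930.1 CPM with it at 1 m, a difference of 0.66 ± 0.09 (SE; limma adjusted p = 0.000919). Rps2 was at 938 and 850.5 CPM in PT 7 d and 844 and 828 CPM after withdrawal, so the PT 1 m libraries and naive (482 CPM) were the low ones. Its reads equal those of the row Snora64.

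Rps6 led the genes that were lower. It is the protein of the small subunit that S6 kinases phosphorylate, and that phosphorylation is a common readout of mTORC1 activity in neurons. Rps6 (chr4:86854660-86857412, minus strand) was at 193 CPM in the naive library, 396 and 385 in PT 7 d, 409 and 449 in PT 7 d LEV, 205 and 219 in PT 1 m, 121 and 132 in PT 1 m LEV, and 329.7 and 281 in PT 2 m after withdrawal. Both PT 1 m LEV libraries were below the other 9, and all 7 d and 2 m libraries were above naive and the 1 m libraries. The LEV difference at 1 m was −0.74 ± 0.09 (SE; limma adjusted p = 0.000724). The CAGE level says nothing of the phosphorylation.

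Rpl18, of the large subunit, was at 83.3 and 96.8 CPM without LEV and 48.2 and 69.8 CPM with it at 1 m, a difference of −0.62 ± 0.12 (SE; limma adjusted p = 0.00613). Rpl18 had its lowest value of all 11 libraries in PT 1 m LEV infarcted, and its value on the non-infarcted side was closer to PT 1 m. Rpl11, which with Rpl5 and 5S RNA can bind Mdm2 outside the ribosome, was at 185 and 206 CPM without LEV and 117 and 153 CPM with it at 1 m, a difference of −0.55 ± 0.11 (SE; limma adjusted p = 0.00662). Rpl6, of the large subunit, was at 85.2 and 81.5 CPM without LEV and 49.5 and 62.3 CPM with it at 1 m, a difference of −0.58 ± 0.10 (SE; limma adjusted p = 0.00319). Rps3, which sits at the mRNA entry of the small subunit, was at 283 and 307 CPM without LEV and 178 and 231 CPM with it at 1 m, a difference of −0.53 ± 0.10 (SE; limma adjusted p = 0.00611). In each of these genes both LEV libraries were below both PT 1 m libraries, as in 33.8% of all tested genes. The genes were named for a call and the same sign in every pair, so this adds no support. Without PT 1 m LEV infarcted, Rps6 kept an adjusted p under 0.05 and Rpl18, Rpl11, Rpl6 and Rps3 did not.

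**Figure D3:**
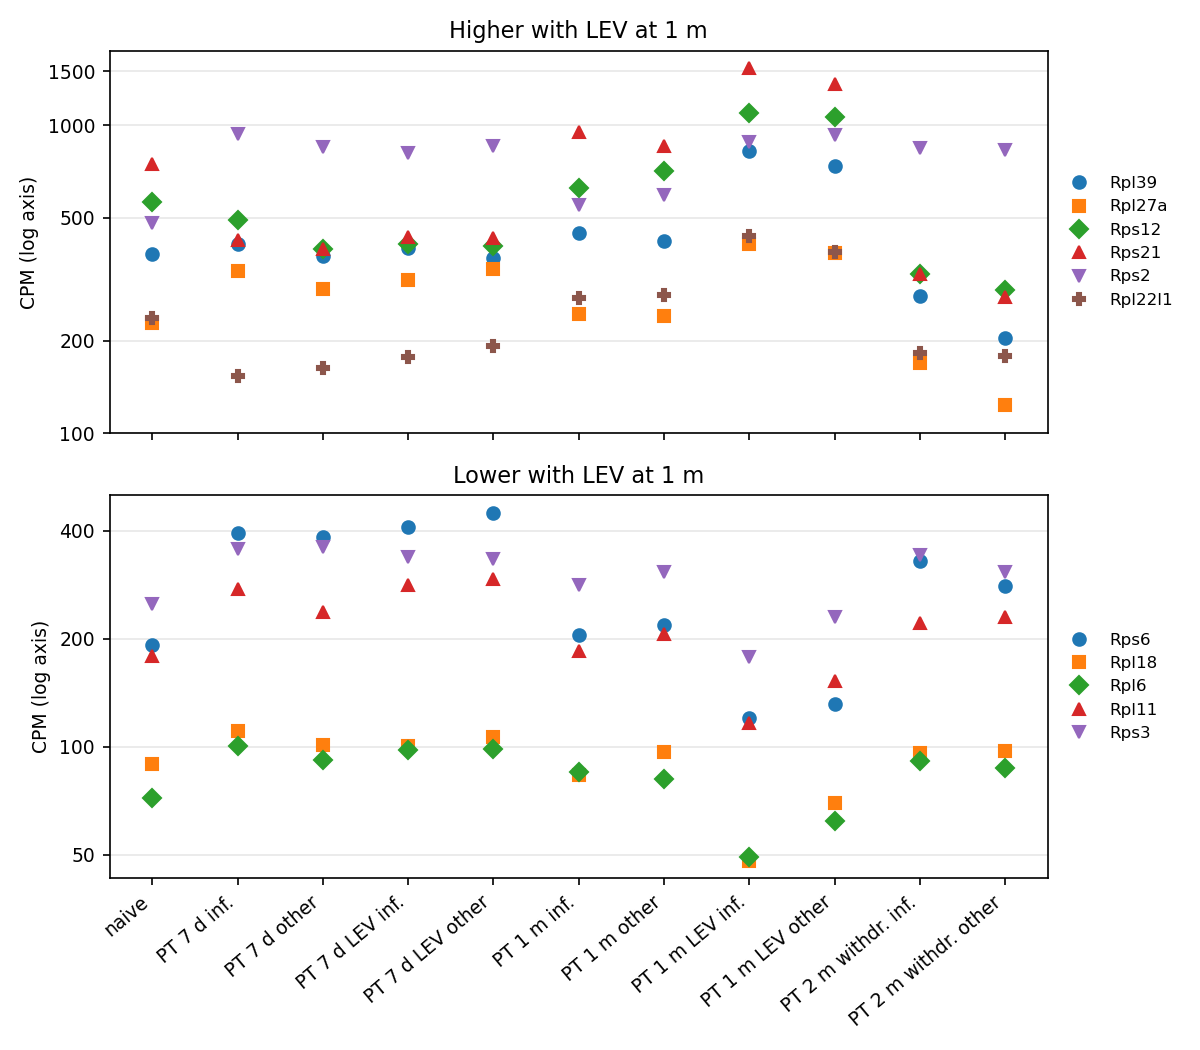
CPM (vertical, log axis) in each of the 11 libraries (horizontal) for the 6 genes called higher with the largest difference with LEV at 1 m (top) and 5 of those called lower (bottom), 1 point a library. Rpl39, Rps21 and Rps12 are highest in PT 1 m LEV, and Rps6 is lowest there and highest at 7 d.

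The stalk of the large subunit, where translation factors dock, is built from Rplp0 and the small acidic proteins Rplp1 and Rplp2. Rplp2 was called higher with LEV at 1 m, at 789 and 752 CPM without LEV and 1197 and 1046 CPM with it and a difference of 0.54 ± 0.10 (SE; limma adjusted p = 0.00418). Rplp1 was at 92.9 and 91.7 CPM without LEV and 104 and 103 CPM with it, and its difference of 0.16 ± 0.08 (SE; limma adjusted p = 0.2) did not pass. Rplp0 was at 129 and 132 CPM without LEV and 105 and 122 CPM with it, with a difference of −0.20 ± 0.11 (SE; limma adjusted p = 0.218). Rpsa, the laminin receptor precursor that is also a small subunit protein, was at 237 and 263 CPM without LEV and 220.1 and 273 CPM with it, with a difference of −0.03 ± 0.10 (SE; limma adjusted p = 0.89).

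Several members are second copies of another ribosomal protein gene. Rpl22l1, the paralog of Rpl22, was at 275 and 280.1 CPM without LEV and 438 and 389 CPM with it at 1 m and was called higher, by 0.57 ± 0.08 (SE; limma adjusted p = 0.00126). Rpl22 itself was at 224 and 223 CPM without LEV and 266 and 256 CPM with it, a difference of 0.22 ± 0.09 (SE; limma adjusted p = 0.116) that did not pass. Rps27l was at 83.6 and 104 CPM without LEV and 121 and 99.6 CPM with it, a difference of 0.24 ± 0.12 (SE; limma adjusted p = 0.209), which did not pass, while Rps27 was called higher, at 499 and 422 CPM without LEV and 605 and 567 CPM with it and a difference of 0.35 ± 0.08 (SE; limma adjusted p = 0.013). Rpl36al was at 305 and 310.0 CPM without LEV and 305 and 317 CPM with it, with a difference of 0.02 ± 0.08 (SE; limma adjusted p = 0.908). Rpl7l1 was at 45.7 and 43.7 CPM without LEV and 39.0 and 37.5 CPM with it, with a difference of −0.22 ± 0.08 (SE; limma adjusted p = 0.0868). Rps4l, a transcribed processed pseudogene in GENCODE M21 despite its symbol, was at 50.4 and 54.4 CPM without LEV and 61.2 and 64.7 CPM with it and was called higher, by 0.26 ± 0.08 (SE; limma adjusted p = 0.045). That call passed in 8 of 21 alternatives, with a limma adjusted p of 0.66 without both libraries low in choroid plexus markers. The untested Rpl39l and Rpl32l had means of 0.155 and 0.230 CPM over the 11 libraries.

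Among the rows with the most reads, Rps14 was at 1946 and 2072 CPM without LEV and 2252 and 2222 CPM with it at 1 m and had the highest mean of the members, 1809 CPM. Rpl32, the second by mean, was at 1386 and 1462 CPM without LEV and 1148 and 1189.7 CPM with it, with a difference of −0.28 ± 0.11 (SE; limma adjusted p = 0.102). Rpl13a and Rps19 had differences of 0.09 and −0.16 (limma adjusted p = 0.539 and 0.264). Rpl31, the fifth by mean, was called higher, at 1008 and 999 CPM without LEV and 1344 and 1395 CPM with it and a difference of 0.45 ± 0.09 (SE; limma adjusted p = 0.00666).

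With LEV at 7 d no ribosomal protein gene or pseudogene passed the threshold, where 0.0125% of all tested genes were called higher and 0.00623% lower. Of the 117 tested members 7 had an unadjusted p under 0.05 in limma, and of all 16057 tested genes 932 had. With edgeR and DESeq2 0 members were called as well. The median log2 difference of the genes was 0.04, and those of the shortest, middle and longest genes were 0.05, 0.06 and −0.01. The largest of the named differences was Rps4l at 0.35 ± 0.08 (SE; limma adjusted p = 0.638), from 47.5 and 43.7 CPM to 58.7 and 57.9 CPM, which did not pass. Rpl3, the longest gene but one and a core protein of the large subunit, was at 433 and 437 CPM and 351 and 342 CPM, a difference of −0.33 ± 0.08 (SE; limma adjusted p = 0.712). Rpl22l1 and Rps27 had differences of 0.22 and 0.24 (limma adjusted p = 0.835 and 0.835).

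Whether LEV differed more at 1 m than at 7 d was tested as the difference of both contrasts. It was called higher at 1 m for 6 genes and lower for 4, and for 4 pseudogenes higher and 0 lower, where 1.63% of all tested genes were called higher and 1.38% lower. The 6 were Rpl39 (0.87), Rps12 (0.81), Rps2 (0.76), Rpl27a (0.66), Rps21 (0.60) and Rpl38 (0.55) in log2. Among the 4 were Rps6 (−0.88), Rpl11 (−0.72) and Rpl6 (−0.61). Their limma adjusted p lay between 0.00859 and 0.048. This count fell to 1 member without PT 1 m LEV infarcted and to 0 without both libraries low in choroid plexus markers. With LEV averaged over 7 d and 1 m, limma called 0 members, against a background of 0.0125% higher and 0.00623% lower. At an unadjusted p under 0.05 were 25 members, and 980 of all 16057 tested genes. The smallest p-values there among genes higher in every pair were those of Rps4l (0.30), Rpl22l1 (0.40) and Rps21 (0.38), none past the threshold (limma adjusted p = 0.794, 0.693 and 0.796).

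Between 7 d and 1 m, over libraries with and without LEV, 19 ribosomal protein genes were higher at 1 m and 21 lower, where 5.71% of all tested genes were called higher and 10.1% lower. Length parted the directions here too. Of the 28 shortest genes 15 were called higher and 1 lower, with a median log2 difference of 0.44, and of the 27 longest 0 were called higher and 16 lower, with a median of −0.45. The 27 of middle length had 4 in each direction and a median of 0.04. Spearman's rho with coding length was −0.734 over these 82 genes and −0.0556 over the other 5989. Of those others, 91 of 734 in the shortest range were called higher and 54 lower. In the longest range 218 of 4405 were called higher and 465 lower. TMM scaling left 5 genes called higher and 2 lower, and quantile scaling 11 and 19. The direction of the named genes below was the same under both. The fit averages the time difference over libraries with and without LEV. In Rps21, Rps12, Rps6 and Rpl11, called above for LEV at 1 m against 7 d, that difference was not the same in both.

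Rps21 was higher at 1 m by 1.44 ± 0.15 (SE; limma adjusted p = 8.98e-07). Rps12 and Rpl37 were higher by 1.00 and 1.00 (limma adjusted p = 0.000167 and 3e-05), and Rpl37, of the large subunit, was at 812 CPM in the naive library, 442 and 434 in PT 7 d, 478 and 447 in PT 7 d LEV, 918 and 739 in PT 1 m, 1016 and 948 in PT 1 m LEV, and 389 and 324 in PT 2 m after withdrawal. Rpl22l1, Rps26 and Rps29 were higher by 0.98, 0.69 and 0.67 (limma adjusted p = 1.47e-05, 0.00158 and 0.000583). In Rps21 and Rpl37 every 1 m library was above every 7 d library, as in 10.8% of all tested genes.

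Rps6 was lower at 1 m by −1.32 ± 0.15 (SE; limma adjusted p = 3.71e-06). Rpl10, which joins the large subunit late in its assembly, was lower by −1.25 ± 0.12 (SE; limma adjusted p = 2.15e-07), and was at 84.8 CPM in the naive library, 210.0 and 196 in PT 7 d, 186 and 191 in PT 7 d LEV, 81.4 and 99.0 in PT 1 m, 64.0 and 85.8 in PT 1 m LEV, and 164 and 138 in PT 2 m after withdrawal. Naive and the 1 m libraries held the low values of Rpl10, and no 7 d or 2 m library overlapped with them. Rpl7a, Rpl11 and Rps4x were lower by log2 differences of −0.78, −0.74 and −0.70, with limma adjusted p between 0.000148 and 0.0011. Rplp0, Rplp1, Rpsa and Rpl7l1 were also called lower (−0.45, −0.35, −0.41 and −0.53). Of 18 alternatives, Rplp1 passed in 6, Rpsa in 10 and Rplp0 and Rpl7l1 in 14 each, and TMM scaling ended all of these calls. Rps27l was called higher (0.64). Choroid plexus markers moved along this comparison, with all 12 called lower at 1 m and a median of −2.12. Called lower were also 5 of 14 microglia (median −0.255), 4 of 10 endothelial (−0.376), 2 of 10 astrocyte (−0.301) and 2 of 10 oligodendrocyte markers. Endothelium, astrocytes, neurons and blood cells had 1 marker each called higher. Of all tested genes 5.71% were called higher and 10.1% lower. The part of these cell types in the ribosomal protein differences was not tested.

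After withdrawal, at 2 m, 18 ribosomal protein genes were higher than in PT 1 m LEV and 48 lower, in a comparison where 30.2% of all tested genes were called higher and 19.5% lower. Of 33 pseudogenes 3 were higher and 20 lower. The median log2 difference was −0.36 for the genes and −0.79 for the pseudogenes, against 0.11 for all tested genes. TMM scaling moved the median of all genes to −0.01 and that of the ribosomal protein genes to −0.49. Of the 28 shortest genes 26 were lower and 0 higher, and of the 27 longest 15 were higher and 3 lower, with medians of −1.04 and 0.33. Other protein-coding genes moved the same way but less. In the shortest range 127 of 734 were higher and 258 lower (median −0.11), and in the longest 1532 of 4405 higher and 758 lower (median 0.15). Spearman's rho with coding length was 0.752 over the 82 ribosomal protein genes and 0.112 over 5989 others. By the correlations above, the PT 1 m LEV and 2 m libraries fall in different sets, and the labels name no batch. Time after PT, withdrawal and a possible batch thus moved together here, and their parts cannot be told apart. Markers of other cell types moved along this comparison: 8 of 10 astrocyte markers (median 0.64), 7 of 10 oligodendrocyte markers (0.46) and 7 of 10 endothelial markers (0.60) were higher. In these lists 0 astrocyte, 1 oligodendrocyte and 2 endothelial markers were lower. Of 14 microglia markers 3 were higher and 1 lower, with a median of 0.14. Of 12 choroid plexus markers 4 were higher, with a median of 1.68, and all 4 tested blood cell markers were lower, with a median of −1.03. Of 10 neuronal markers 1 was higher and 1 lower. The part of these cell types in the ribosomal protein differences was not tested.

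Rps21 was lower by −2.25 ± 0.08 (SE; limma adjusted p = 1.85e-08), the largest fall among the genes. Rps12 and Rpl39 were lower by −1.80 and −1.71 (limma adjusted p = 3.76e-07 and 3.76e-07). Rps15a, of the small subunit, went from 950.2 and 890.1 CPM to 323 and 259 CPM, a difference of −1.67 ± 0.11 (SE; limma adjusted p = 8.34e-07). Rpl37 and Rpl27a were lower by −1.47 and −1.46 (limma adjusted p = 4.3e-07 and 1.53e-06), and Rplp2 by −1.26 (limma adjusted p = 1.7e-06). These genes had been higher with LEV at 1 m or higher at 1 m than at 7 d, and the comparisons share the PT 1 m LEV libraries.

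Rps6 was higher after withdrawal by 1.26 ± 0.09 (SE; limma adjusted p = 1.1e-06) and Rpl10 by 1.01 ± 0.13 (SE; limma adjusted p = 4.8e-05). Rps3a1, of the small subunit, went from 23.1 and 28.6 CPM to 53.7 and 49.1 CPM, a difference of 0.97 ± 0.11 (SE; limma adjusted p = 2.34e-05). Rpl7l1, Rps4x and Rpl11 were higher by 0.95, 0.81 and 0.76 (limma adjusted p = 3.1e-06, 1.92e-05 and 0.000121), and Rplp0 by 0.68 (limma adjusted p = 0.000225). Set against PT 7 d LEV, whose libraries fall in the same set as those of 2 m by the correlations above, the median of the 84 genes after withdrawal was −0.258 on the infarcted side and −0.447 on the other, where all genes had 0.0248 and 0.0222. Against that group the 28 shortest genes had medians of −0.333 and −0.498 and the 27 longest of −0.0986 and −0.299, so that both were below 0 there. No test was made of these values.

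**Figure D4:**
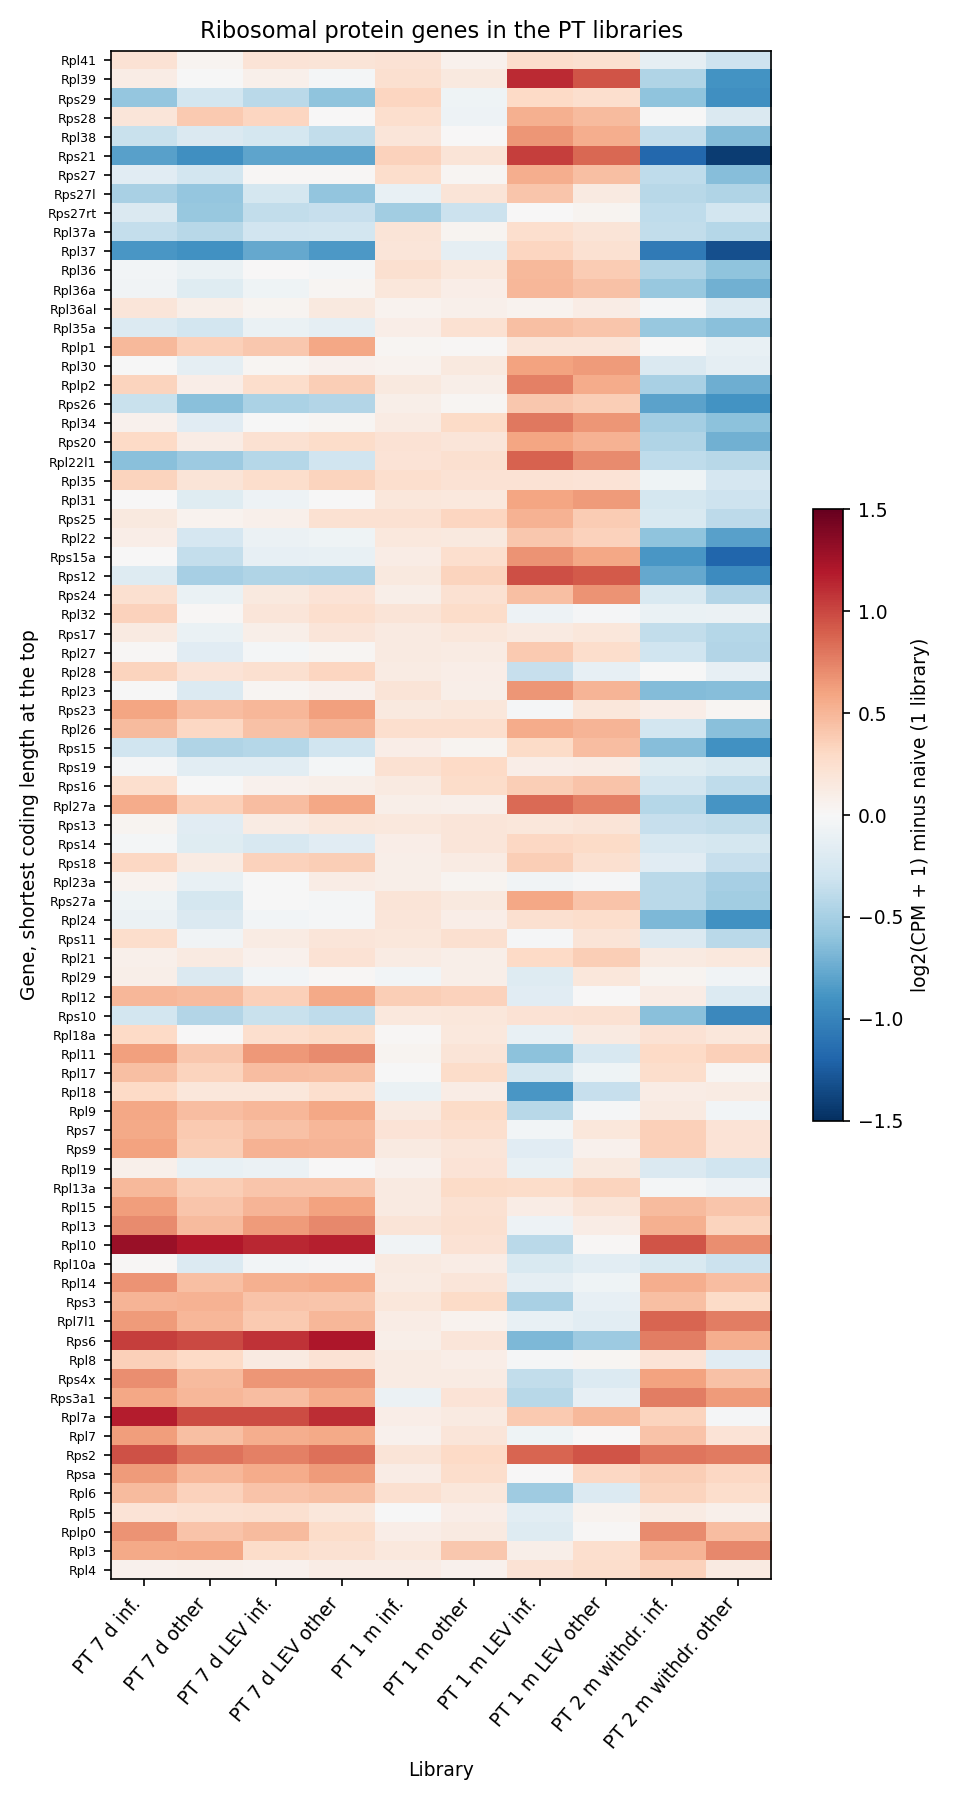
Log2(CPM + 1) of 80 of the tested protein-coding ribosomal protein genes in the 10 PT libraries (columns) minus the single naive library, with genes (rows) ordered from the shortest coding length at the top to the longest at the bottom. Red is above naive and blue below, and the top rows are red in PT 1 m LEV and blue after withdrawal while many bottom rows are red at 7 d and 2 m.

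Against the single naive library there was no test, and rows were counted whose log2 difference was 1 or more, up or down alike, on both sides. In PT 1 m LEV this held for 0 genes and 5 pseudogenes, all higher, where 0.237% of all tested genes were higher and 0.199% lower. In PT 1 m it held for 0 members, where 0.00623% were higher and 0.255% lower. In PT 7 d 1 gene and 1 pseudogene were higher and 0 genes and 1 pseudogene lower, where 0.237% and 0.766% of all tested genes were. In PT 7 d LEV 2 genes and 0 pseudogenes were higher and 0 genes and 1 pseudogene lower, where 0.212% and 0.71% of all tested genes were. In PT 2 m after withdrawal 2 genes and 5 pseudogenes were lower and 0 higher, where 1.63% and 0.504% of all tested genes were. By the smaller of both sides, Rpl21-ps15, Rpl30-ps10, Rps12-ps4 and Rpl39-ps were highest above naive in PT 1 m LEV, at log2 differences of at least 2.13, 1.84, 1.43 and 1.42 on both sides. Rps6 was below naive there by −0.67 and −0.54, Rpl18 by −0.88 and −0.35, Rpl11 by −0.62 and −0.23, and Rpl9-ps7 by −1.06 and −0.27.

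Between the infarcted and the non-infarcted side, limma called no ribosomal protein gene or pseudogene, where 0% of all tested genes were called. At an unadjusted p under 0.05 limma found 8 members, and 1221 of all 16057 tested genes. With edgeR and DESeq2 0 members were called. Of the genes higher on the infarcted side in all 5 pairs, those of smallest p were Rpl39 (0.19), Rpl37 (0.16), Rps27 (0.14), Rps21 (0.14), Rps27a (0.11) and Rpl41 (0.11) in log2, none of which passed. Their limma adjusted p lay between 0.442 and 0.669. Of these 6, 5 are among the 28 shortest genes, and Spearman's rho between the side difference and coding length was −0.544 over the 82 genes and −0.0121 over the others.

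Pseudogenes were measured at low level. Of the 82, 72 are processed pseudogenes in GENCODE M21, while Rpl9-ps6 and Rpl10-ps3, both tested, are typed there as protein-coding despite their symbols, and the highest mean was 137 CPM for Rpl14-ps1. The other pseudogenes of highest mean were Rpl36a-ps2 (101.2 CPM), Rps15-ps2 (83.9 CPM), Rpl36-ps2 (46.9 CPM), Rps19-ps6 (17.5 CPM) and Rpl17-ps10 (14.9 CPM). Aligned with the mRNA of the gene each is named for, the 33 tested were 82.9% to 100% identical, with a median of 99.3%, and had a median of 1.36% of that gene's level. The rule for reads that match several places is not stated in those sources, so each pseudogene's level is uncertain. In 22 of the 33 the LEV difference at 1 m was above that of the gene.

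The largest difference with LEV at 1 m among all members was that of Rpl21-ps15 (chrX:151215167-151215649, minus strand), a single-exon copy of Rpl21. Its first 60 bases are printed because they match the first 60 coding bases of Rpl21 without a mismatch. Reads starting there would fit both. In the Rpl21 mRNA used, the stretch lies at bases 385 to 444, so reads from the 5′ end of that mRNA would not start in it. The start codon is in capitals.
Rpl21-ps15: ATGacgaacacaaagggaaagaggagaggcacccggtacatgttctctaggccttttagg
Rpl21-ps15 was at 7.78 CPM in the naive library, 5.77 and 4.48 in PT 7 d, 4.79 and 4.58 in PT 7 d LEV, 7.40 and 7.75 in PT 1 m, 41.1 and 37.3 in PT 1 m LEV, and 4.90 and 3.50 in PT 2 m after withdrawal. The PT 1 m LEV libraries were above all others, with a difference of 2.23 ± 0.14 (SE; limma adjusted p = 4.41e-05). Rpl21 itself was at 44.9 and 43.9 CPM without LEV and 50.8 and 53.7 CPM with it, a difference of 0.23 ± 0.08 (SE; limma adjusted p = 0.0679) that did not pass. Over the whole aligned length the copy was 99.4% identical to the mRNA.

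Rpl30-ps10 was at 2.999 CPM in the naive library, 4.91 and 3.68 in PT 7 d, 4.16 and 4.46 in PT 7 d LEV, 2.39 and 4.02 in PT 1 m, 13.3 and 13.7 in PT 1 m LEV, and 0.981 and 0.831 in PT 2 m after withdrawal, with a LEV difference at 1 m of 1.82 ± 0.20 (SE; limma adjusted p = 0.000521). Rps12-ps4 was at 2.54 and 3.59 CPM without LEV and 13.0 and 9.97 CPM with it at 1 m, a difference of 1.62 ± 0.19 (SE; limma adjusted p = 0.000645). The genes they are named for, Rpl30 and Rps12, were also called higher, by 0.52 and 0.70. Rpl9-ps6, protein-coding in GENCODE M21, went the other way from Rpl9: it was at 10.6 and 14.7 CPM without LEV and 20.8 and 25.6 CPM with it, a difference of 0.84 ± 0.17 (SE; limma adjusted p = 0.00749), while Rpl9 was at 166 and 185 CPM without LEV and 113 and 149 CPM with it, a difference of −0.43 ± 0.11 (SE; limma adjusted p = 0.0242). Rpl9-ps7, a further copy, was lower, at 11.2 and 11.5 CPM without LEV and 4.03 and 7.73 CPM with it and −0.90 ± 0.23 (SE; limma adjusted p = 0.0199). Rpl17-ps10 was lower, at 12.9 and 16.8 CPM without LEV and 6.67 and 10.9 CPM with it and −0.72 ± 0.21 (SE; limma adjusted p = 0.0356). Without PT 1 m LEV infarcted neither Rpl9-ps7 (−0.44, limma adjusted p = 0.269) nor Rpl17-ps10 (−0.39, limma adjusted p = 0.396) passed. Of 21 alternatives Rpl9-ps7 passed in 17, between −1.498 and −0.44, and Rpl17-ps10 in 12, between −1.38 and −0.39.

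**Figure D5:**
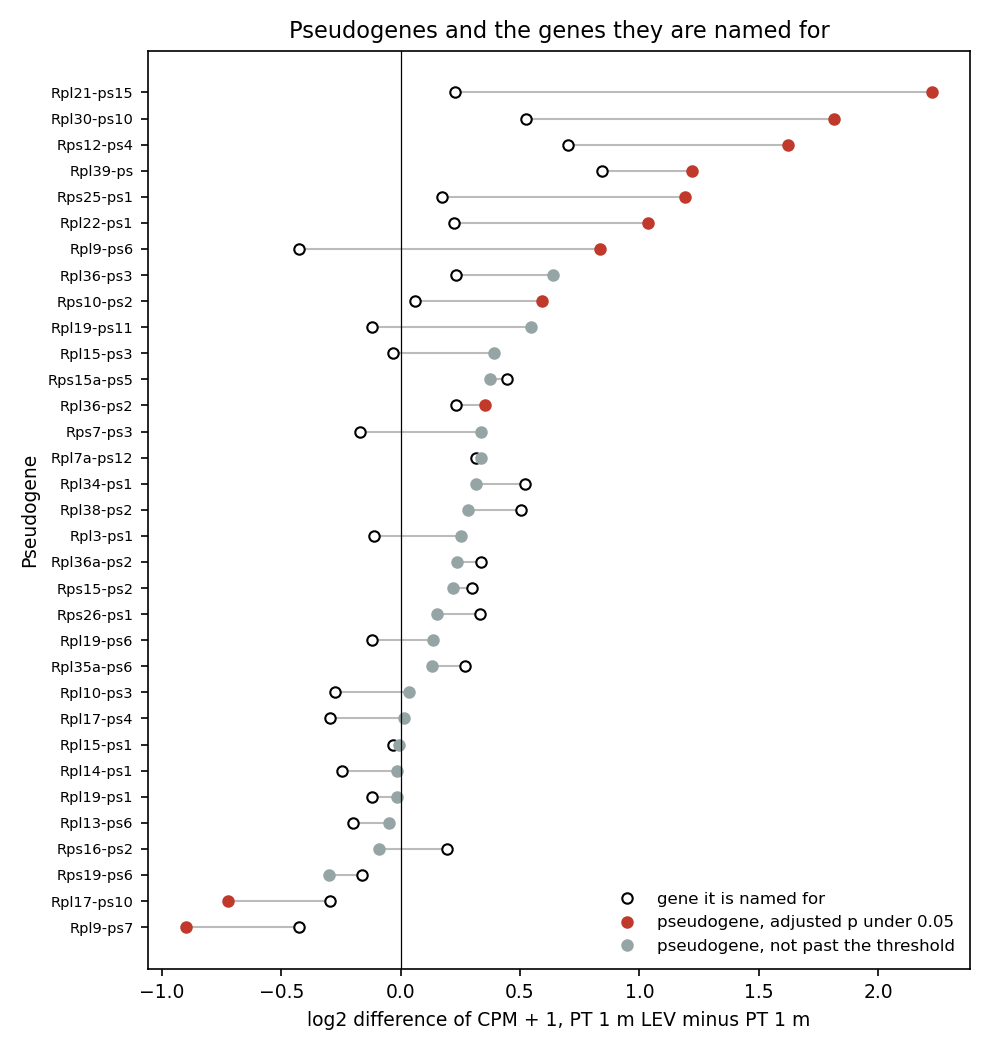
Log2 difference between PT 1 m LEV and PT 1 m (horizontal, of CPM + 1) for the 33 tested pseudogenes (rows, filled points, red where the limma adjusted p is under 0.05) and the gene each is named for (open points). Rpl21-ps15 stands highest at 2.23 with Rpl21 at 0.23, and 22 of the 33 pseudogenes lie above their gene.

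Of the 33 tested pseudogenes, 10 were higher at 1 m than at 7 d and 2 lower, where 5.71% of all tested genes were called higher and 10.1% lower. Rpl9-ps6 was higher by 2.02 ± 0.17 (SE; limma adjusted p = 5.03e-08), Rpl21-ps15 by 1.66 and Rpl22-ps1 by 1.24 (limma adjusted p = 0.000368 and 4.37e-05). These values average libraries with and without LEV. For Rpl21-ps15 the LEV difference was larger at 1 m than at 7 d by 2.33. Its rise with time was thus larger by that amount with LEV, and 1.66 describes neither group alone. Rpl14-ps1, the pseudogene with the most reads, was lower by −0.66 ± 0.12 (SE; limma adjusted p = 0.000589). After withdrawal Rpl21-ps15, Rpl30-ps10 and Rpl22-ps1 were lower than in PT 1 m LEV by −2.96, −2.93 and −2.56 (limma adjusted p = 2.71e-07, 8.97e-07 and 3.5e-06). The 3 pseudogenes that were higher after withdrawal were Rpl17-ps10 (0.91), Rpl9-ps7 (0.81) and Rpl14-ps1 (0.62).

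Other genes of the translation system were read from lists, and did not follow one direction either. Of 23 other genes known to start with a TOP tract, 7 were higher with LEV at 1 m and 3 lower, where 7.12% of all tested genes were called higher and 8.46% lower. Those higher were led by Tpt1, a growth-related protein (0.99), the noncoding host gene Gas5 (0.66) and the elongation factor Eef2 (0.59). Those lower were Ybx1 (−0.34), Pabpc1 (−0.30) and Eef1d (−0.28). Of these 23, 0 were higher and 9 lower at 1 m than at 7 d (5.71% and 10.1% of all tested genes), and 11 were higher and 5 lower after withdrawal (30.2% and 19.5%). Mitochondrial ribosomal proteins, which build the separate ribosome of that organelle, had 6 of 78 higher and 13 lower with LEV at 1 m, the share of those higher being near that of all tested genes, with a median of −0.12. Nucleolar ribosome assembly factors had 1 of 30 higher and 5 lower, led by Ebna1bp2 (−0.56), with a median of −0.13. RNA polymerase I genes, which make the precursor of ribosomal RNA, had 0 of 14 higher and 3 lower. In the list of mTORC1, LARP1 and S6 kinase genes, 2 of 20 were higher and 4 lower, among them Ddit4, an inhibitor of mTORC1 (0.49), and Larp1, which binds TOP tracts (−0.43). After withdrawal 17 of the 30 assembly factors and 8 of the 14 RNA polymerase I genes were higher and 1 of each lower, where 30.2% of all tested genes were higher and 19.5% lower.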

How the data were processed

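CAGE libraries were cap-trapped and random-primed from total RNA of whole hippocampus, per the labels' protocols. The deposited table holds CPM per gene, and 100.0% of its values were whole numbers of reads (within 0.0001) of a library total recovered from the step between values. The submitters' processing notes name GRCm38 as the build, with HISAT2 2.0.5, BWA 0.7.17 and DESeq2 1.20.0 as tools. Annotation and rules for assigning reads, to genes or among repeated copies, are not stated there. Listed genes held 93.0% to 96.1% of each library's reads.

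Tests were made on log2(CPM + 1) for the 16057 genes with a mean of at least 1 CPM, with limma 3.58.1 in R 4.3.3 (eBayes with a trend), Benjamini-Hochberg adjustment over all of them and a threshold of 0.05. A fold change on this scale understates the change of low genes. Side was fitted over 10 PT libraries with condition as a block. LEV and time were fitted on 4 condition means (1 residual degree of freedom). LEV at 1 m, LEV at 7 d, their difference and withdrawal were fitted over 10 PT libraries with side as a term (4 residual degrees of freedom). Since nothing says that the libraries are separate animals, p-values measure only the spread between these libraries. The fits were tested on simulated data: for LEV at 1 m over 16053 genes, 53.7% of genes changed 1.5-fold and 100% of those changed 2-fold were recovered. The simulated libraries were independent, with 1 dispersion for all genes, no batch and no shift of cell types. No gene near the filter of 1 CPM was changed in them, so these rates need not hold for the real libraries.

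Gene type, position and coding length came from GENCODE M21 (168 of 168 members matched), promoters from RefSeq GRCm38.p6, and pseudogenes were aligned with Biopython 1.88. For 16 members another row held identical reads throughout. Named genes were, beside Rpsa, Rplp0 to Rplp2, Rps6, second copies and the members with the most reads, up to 6 genes and 3 pseudogenes per direction with the largest difference past the threshold and the same sign in every pair. Where none passed, those of smallest p were taken. Some genes that the rule names are not reported here by name. The members and lists were chosen with earlier results of these data known, and edgeR 4.0.16, DESeq2 1.42.0, other scalings, filters and left-out libraries were alternatives.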

Additional observations from a re-analysis of the deposited data

Results flagged for a closer look

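The LEV difference of some members was not the same at 1 m and at 7 d by the test of that difference (limma adjusted p under 0.05). In log2, 1 m minus 7 d, it was 0.87 for Rpl39, 0.81 for Rps12, 0.76 for Rps2, 0.66 for Rpl27a, 0.60 for Rps21 and 0.55 for Rpl38, and −0.88 for Rps6, −0.72 for Rpl11 and −0.61 for Rpl6. For pseudogenes it was 2.33 for Rpl21-ps15, 1.84 for Rps12-ps4, 1.80 for Rpl30-ps10 and 1.38 for Rpl39-ps. Without PT 1 m LEV infarcted 1 such call was left.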

How the results depend on the processing

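Counts of called members, of 117 tested, moved as follows. For 1 m against 7 d, 52 were called, but 10 with TMM scaling, 2 with no filter, 22 with edgeR and 34 with DESeq2, and 30 to 55 when single libraries were left out (30 without PT 1 m infarcted). For LEV at 1 m, 45 were called, 24 without a trend and 12 to 48 with 1 library left out: 12 without PT 1 m LEV infarcted, 27 without PT 1 m infarcted and 29 without PT 1 m LEV other. Without both libraries low in choroid plexus markers, an alternative chosen after seeing the data, 20 were called. For the difference of LEV at 1 m and 7 d, 14 were called, 9 with no filter, 1 without a trend, 0 without both of those libraries and 1 to 16 with 1 library left out (3 and 7 without PT 7 d LEV infarcted and other, 1 and 9 without PT 1 m LEV infarcted and other). For LEV over both times 0 were called, and 0 to 6 with 1 library left out (6 without PT 7 d infarcted). For withdrawal the 89 calls stayed at 77 to 102, and for side and LEV at 7 d 0 were called under each alternative. The share of reads in PT 1 m LEV over that in PT 1 m was 1.125, with pseudogenes left out 1.123, and 1.103 over listed genes. Against naive, 5 members passed in PT 1 m LEV, and 2 with a pseudocount of 5. The cause was not tested in any of these. Over the alternatives, the medians of the shortest and longest genes stayed at 0.234 to 0.405 and −0.394 to −0.0681 for LEV at 1 m, 0.379 to 0.507 and −0.505 to −0.383 for time, and −1.17 to −0.892 and 0.199 to 0.492 for withdrawal.

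Changes of sign were looked for among the named genes alone, and were seen only in those that had not passed. For LEV at 1 m Rpsa became 0.036 with TMM scaling, 0.025 with edgeR and 0.023 with DESeq2, and lay between −0.177 and 0.125 with 1 library left out. Rpl36al became −0.012 with quantile scaling and −0.084 without both libraries low in choroid plexus markers, and lay between −0.030 and 0.066 with 1 library left out. Rps27l lay between −0.0051 and 0.484 with 1 library left out. For time Rpl36al became 0.0092 with TMM scaling, 0.025 with edgeR and 0.027 with DESeq2, and Rplp2 became −0.016 with quantile scaling. For LEV at 7 d, with 1 library left out, Rpl10 lay between −0.214 and 0.0067, Rps10-ps2 between −0.314 and 0.014 and Rpl36-ps2 between −0.042 and 0.243.

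The labels give no replicate numbers that pair libraries, and the side test pairs the libraries of both sides by their condition. With 1 library a group, a left-out library leaves a condition with the other side alone, which is assumed to vary like the rest. Pseudogenes near 1 CPM rest on few reads.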

Other observations

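Outside the ribosomal protein rows, the levels most like the mean of the 84 genes over the 11 libraries (Pearson's r of log2 values, a description over points that share conditions) were those of Gm9396 (0.970), the histone gene H3c11 (0.959), Gm24016 (0.956), Coa6, an assembly factor of cytochrome oxidase (0.956), and the histone gene H3c4 (0.955). The reads of Gm24016 equal those of Rps20 in every library. H3c11 was at 55.8 CPM in naive, 64.9 and 64.9 CPM in PT 1 m, 100.5 and 92.2 CPM in PT 1 m LEV and 35.5 and 29.5 CPM after withdrawal. It was at 98.3 and 61.1 CPM in PT 7 d and 73.0 and 82.7 CPM in PT 7 d LEV, so that it was highest in PT 1 m LEV infarcted, followed by PT 7 d infarcted, and lowest after withdrawal.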
